A study of Mus musculus with 12 samples.

Results

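Head-to-head gene pairs are neighbouring transcription units that lie on opposite strands and start next to each other. A pair was kept when a minus-strand locus on chromosomes 1 to 19 ended 0 to 1000 bases below the start of a plus-strand locus, in the coordinates of the mouse build mm9. A locus is the sum of all transcripts that overlap on 1 strand. By this rule 1291 pairs were found, made of 2514 loci, which is 9.79% of the 25677 loci on these chromosomes. In 794 of the 1291 pairs (61.5%) both partners passed the filter on low counts and could be tested, in 348 pairs 1 partner passed, and in 149 pairs neither did.

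The series measured RNA by sequencing in 12 libraries of mouse kidney cells taken at postnatal day 0. All cells carried the R26R-tdTomato reporter and were sorted by flow cytometry as Six2-expressing progenitors, Six2 being a transcription factor of the nephron progenitor. The sample titles give 4 groups: 2 mutant high libraries, 2 control high libraries, 4 mutant low libraries and 4 control low libraries. The series title names Eed, but no sample label states the mutant allele, the Cre driver or which signal was high or low, so "mutant", "high" and "low" are used here as the titles use them. Nothing in the labels says whether the libraries came from separate animals, and the p-values therefore measure the spread between these libraries, which may be technical. The files pair no identifier with a gene name, so the loci are given by position, the targeted gene was not examined as a check of the labels, and no sequence of this build was used.

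In mammals many genes start head to head, and the short stretch between their starts often serves both as a shared, bidirectional promoter. Such promoters commonly lie in CpG islands and are common at genes that most cells use. Eed is a core subunit of Polycomb repressive complex 2, which methylates a histone tail and keeps developmental genes silent, mainly at CpG island promoters. The question addressed here is whether the 2 partners of a pair changed together between mutant and control and between high and low cells, beside neighbouring pairs on the same strand.

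The pairs were close. The median distance between the 2 starts was 175 bases, 715 pairs lay within 200 bases and 1092 within 500 bases. Chromosome 11 held the most pairs, 115, followed by chromosome 2 with 113 and chromosome 7 with 103. The loci of the pairs were more often detected than loci in general: 77.0% of them passed the filter, against 51.8% of all loci on these chromosomes. Once filtered, their median level was 22.6 CPM (fragment counts scaled to library size), against 19.1 CPM for all 13749 loci tested. In 418 pairs a partner also overlapped a locus on the other strand, and 24 loci belonged to more than 1 pair, so not all pairs are independent of each other.

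Library totals ranged from 4549011 to 12365078 fragments, the lowest being control high replicate 2. The mitochondrial chromosome held 4.51% and 10.3% of the fragments in control high replicates 1 and 2, against 0.494% to 1.96% in the other 10 libraries, and its part in the comparisons that use these 2 libraries was not tested. Head-to-head loci held 13.9% ± 0.521 of all fragments in mutant high libraries and 13.6% ± 0.847 in control high libraries (SD, n = 2 each). They held 15.3% ± 0.138 in mutant low libraries and 15.1% ± 0.101 in control low libraries (SD, n = 4 each). The high and low ranges did not overlap in either genotype. An exact two-sided permutation test gave p = 0.133 for mutant high against mutant low, the smallest that 2 against 4 libraries allow, and the same for control high against control low. No adjusted p over the 12 such comparisons computed fell below 0.48.

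The partners of head-to-head pairs rose in a smaller share than loci in general, and fell in a similar share in most comparisons. In low cells, 30 of the 1936 tested partners rose in mutant libraries (1.55%, against 4.82% of all loci tested) and 19 fell (0.981%, against 3.21%), by edgeR's quasi-likelihood test at an adjusted p under 0.05. In high cells, 177 partners rose in mutant libraries (9.14%, against 16.3%) and 211 fell (10.9%, against 11.2%). In control cells, 404 partners were higher in high cells (20.9%, against 25.3%) and 512 were lower (26.4%, against 27%). In mutant cells, 167 were higher in high cells (8.63%, against 19%) and 253 were lower (13.1%, against 13.2%). The share that rose was thus below the share of all loci in all 4 comparisons, while the share that fell was close to it in 3 of them. The sizes of the changes ran the same way: the median absolute log2 fold change of the partners was 0.27, against 0.33 for all loci tested, in low cells, and 0.65 against 0.75 in high cells. The head-to-head loci were among those tested, and the difference between the shares was itself not tested.

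When a partner changed, the other usually did not pass the test. Except for falls in low cells, it still passed in the same direction more often than the partners of tested pairs in general. In low cells, 4 of the 794 pairs had both partners higher in mutant libraries, none had both lower, none changed in opposite ways, 20 had 1 partner called and 770 had neither. At an unadjusted p under 0.05, 2 pairs had both lower and 2 changed in opposite ways, and DESeq2 gave 0 of each. In high cells, 14 pairs had both partners higher, 15 had both lower, 8 changed in opposite ways, 219 had 1 partner called and 538 had neither. So in high cells 27.6% of the pairs changed on 1 side alone and 3.65% changed on both sides in the same direction. With 1 partner higher, the other was higher in 50.0% of cases in low cells, against 1.01% of all partners of these pairs. In high cells this was 21.4%, against 8.25%. With 1 partner lower, the other was lower in 0.0% in low cells, against 0.756%, and in 18.5% in high cells, against 10.2%. These shares were not compared by a test. The counts of high cells rest on 2 libraries a group: the 29 pairs that changed the same way in high cells were 8 once mutant high replicate 2 was left out, 15 without replicate 1 of control high and 12 without its replicate 2.

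More pairs moved between high and low cells. In control cells, 52 pairs had both partners higher in high cells, 78 had both lower, 44 changed in opposite ways, 385 had 1 partner called and 235 had neither. With the RLE scaling of DESeq2 in place of TMM, 56 pairs had both higher and 62 had both lower, and partners called one by one were 438 higher and 450 lower. In mutant cells, 18 pairs had both partners higher in high cells, 22 had both lower, 12 changed in opposite ways, 238 had 1 partner called and 504 had neither. With 1 partner higher in control cells, the other was higher in 33.4% of cases, against 19.6% of all partners of these pairs. With 1 partner lower, the other was lower in 37.0%, against 26.6%. In mutant cells these shares were 29.3% against 7.75% and 20.1% against 13.8%. The 130 control pairs that changed the same way were 80 when replicate 1 of control high was left out and 60 when its replicate 2 was. The 40 mutant pairs were 16 when replicate 1 of mutant high was left out, 21 when its replicate 2 was and 26 when mutant low replicate 4 was. Over the 4 comparisons, 607 of the 794 pairs (76.4%) had a partner called at least once, 144 (18.1%) had both called the same way at least once, 54 (6.8%) had both called in opposite ways at least once, and 1 pair was in both of these sets. Of the 341 same-strand neighbours tested, 84.8% had a partner called at least once, 19.6% had both called the same way and 11.7% in opposite ways.

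**Figure D1:**
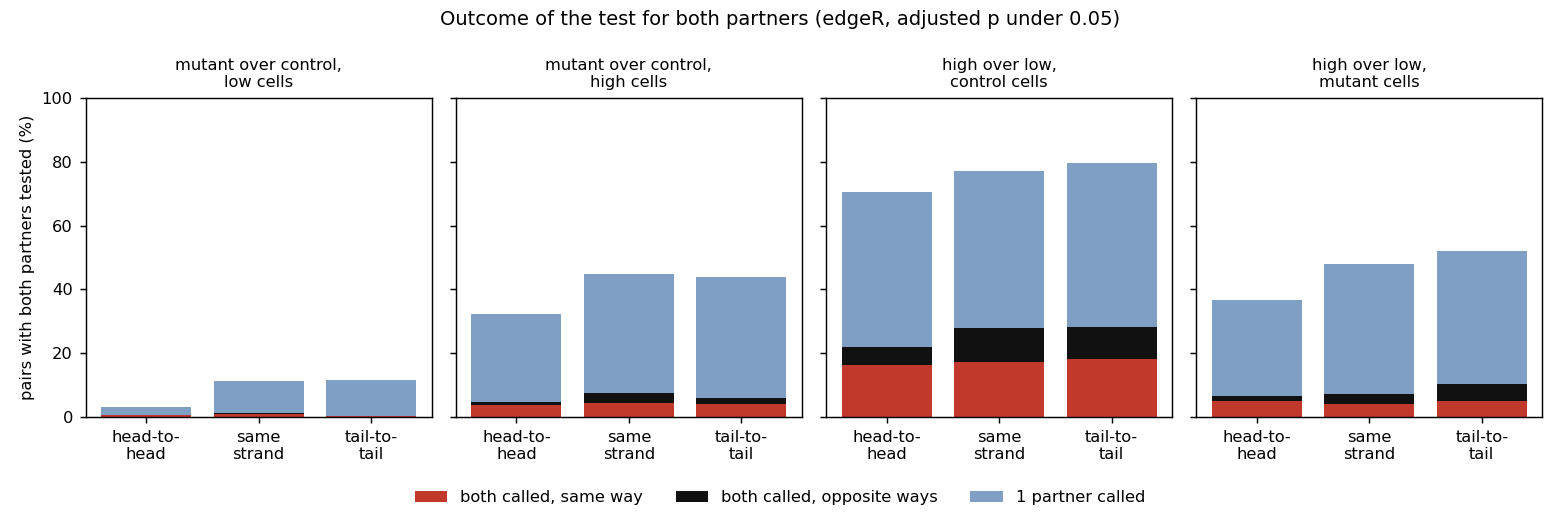
Share of pairs, in percent of those with both partners tested, by the outcome of the test for the 2 partners, for head-to-head pairs (794), neighbouring same-strand pairs (341) and tail-to-tail pairs (410) within 1000 bases. In every comparison the largest called class is the one with 1 partner called, which reaches 48.5% of head-to-head pairs between high and low control cells.

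Where both partners were called, they mostly went the same way, and did so in a larger share of pairs than among same-strand neighbours. The neighbouring same-strand pairs with a gap of 0 to 1000 bases numbered 3231, of which 2611 (80.8%) consisted of loci shorter than 200 bases, and 341 had both loci tested. In high cells, mutant against control, 29 of the 37 head-to-head pairs with both partners called went the same way (78.4%), against 15 of 26 same-strand pairs (57.7%). For high against low control cells the counts were 130 of 174 head-to-head pairs (74.7%) and 59 of 95 same-strand pairs (62.1%). For high against low mutant cells they were 40 of 52 (76.9%) and 14 of 25 (56.0%). In low cells both kinds had only 4 such pairs, of which 4 head-to-head and 3 same-strand pairs went the same way. As a share of all pairs tested, changes in the same direction were about as frequent in both kinds. They made up 16.4% of head-to-head and 17.3% of same-strand pairs between high and low control cells. Opposite changes were fewer in head-to-head pairs, at 5.54% and 10.6%. Head-to-head partners were, however, called higher less often than same-strand loci there, in 19.6% against 26.7%, and lower in 26.6% against 25.8%. The shares of all pairs are therefore not on a like base. With 1 same-strand locus higher, the other was higher in 34.1%, and with 1 lower, the other was lower in 31.8%. For head-to-head pairs these were 33.4% and 37.0%. Same-strand pairs over 1000 to 10000 bases apart, where both were called, went the same way in 70.6% (high cells), 61.4% (control cells) and 60.9% (mutant cells), and in 88.2% of 17 pairs in low cells. Tail-to-tail pairs did so in 68.0%, 63.8% and 50.0% in high, control and mutant cells. The difference between the 2 kinds of pair was not tested.

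The sign of the fold change was also counted over all 794 pairs, whether or not called. Both partners had the same sign in 54.0% of head-to-head pairs for mutant against control in low cells (95% exact Clopper-Pearson interval 50.5% to 57.5%), in 56.9% in high cells (53.4% to 60.4%), in 58.3% for high against low control cells (54.8% to 61.8%) and in 54.9% for high against low mutant cells (51.4% to 58.4%). Same-strand neighbours had the same sign in 57.2%, 55.7%, 54.5% and 53.7% of pairs in the same order, with intervals that overlap those of the head-to-head pairs. These intervals take pairs as independent and cover counting error only. By sign alone the 2 kinds of pair could not be distinguished in these libraries.

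The sizes of the partners' changes were weakly related. Across the 794 head-to-head pairs, Pearson's r between the partners' log2 fold changes was 0.25 for mutant against control in low cells, 0.29 in high cells, 0.34 for high against low control cells and 0.26 for high against low mutant cells. Spearman's rho was lower, at 0.05, 0.19, 0.24 and 0.14, so that by rank the partners were barely related in low cells. Across the 341 same-strand pairs Pearson's r was 0.12, 0.12, 0.15 and 0.19. Same-strand neighbours over 1000 to 10000 bases apart (1946 tested) had r of 0.16, 0.13, 0.18 and 0.19, and tail-to-tail pairs (410 tested), which converge at their ends, had r of 0.14, 0.12, 0.10 and 0.00. The 2 values of a pair come from the same libraries and share their depth and scaling, and these correlations describe the pairs and carry no test. Among pairs in which both partners averaged at least 5 CPM, r was 0.19, 0.24, 0.28 and 0.26 for 471 head-to-head pairs and 0.26, 0.01, 0.16 and 0.22 for 192 same-strand pairs, so in low cells the order of the 2 kinds turned round at this level.

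**Figure D2:**
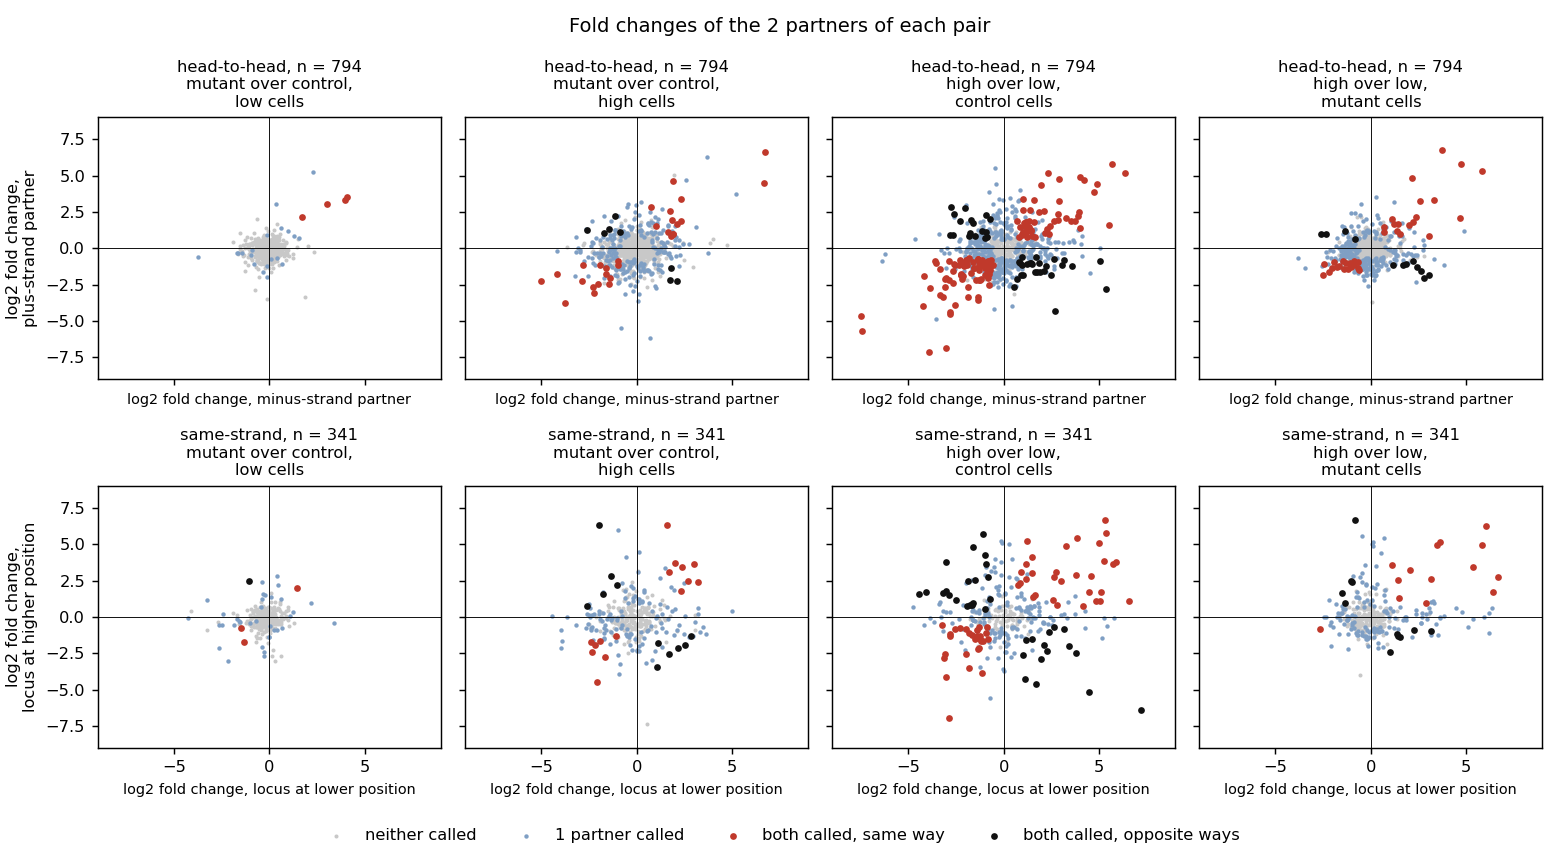
Log2 fold change of each partner against the other, for 794 head-to-head pairs (top row, minus-strand partner on the x axis, plus-strand partner on the y axis) and 341 same-strand neighbours (bottom row, by position), in each of the 4 comparisons. Points are coloured by the test for the 2 partners: among head-to-head pairs the calls in the same direction outnumber those in opposite directions by 130 to 44 between high and low control cells.

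Libraries shared by the 2 partners were set aside by crossing comparisons that share no library. The change of 1 partner between high and low control cells was set against the change of the other partner between high and low mutant cells, which gives 1588 points for the 794 head-to-head pairs. Pearson's r was 0.26 and Spearman's rho 0.17, against 0.14 and 0.09 for 682 points of same-strand neighbours and 0.04 and 0.04 for 820 points of tail-to-tail pairs. For mutant against control, high cells crossed with low cells, whose libraries in part carry the same number in their descriptions, r was 0.16 for head-to-head pairs, 0.07 for same-strand neighbours and 0.08 for tail-to-tail pairs. For scale, the same locus had r = 0.73 between the 2 high-against-low comparisons and r = 0.43 between the 2 mutant-against-control comparisons, over the same 1588 points. A partner's change was thus related to its neighbour's far less than to its own in other libraries.

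The same comparison showed which pairs moved in both genotypes. Of the 130 pairs that changed the same way between high and low control cells, 32 (24.6%) changed both partners in that direction in mutant cells too, where 40 pairs in all changed the same way. The same share was 20.3% for same-strand neighbours, 26.2% for those over 1000 to 10000 bases apart and 24.3% for tail-to-tail pairs. Of the 44 pairs with opposite changes in control cells, 5 had the same opposite changes in mutant cells. This was so for 8 of 36 same-strand neighbours, 44 of 199 of those over 1000 to 10000 bases apart and 14 of 42 tail-to-tail pairs. Of the 385 pairs with 1 partner called in control cells, 125 (32.5%) had that same partner called alone, in the same direction, in mutant cells, against 38.7% for same-strand neighbours and 39.5% for tail-to-tail pairs. For mutant against control, 2 of the 4 pairs that rose in low cells also rose in high cells.

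**Figure D3:**
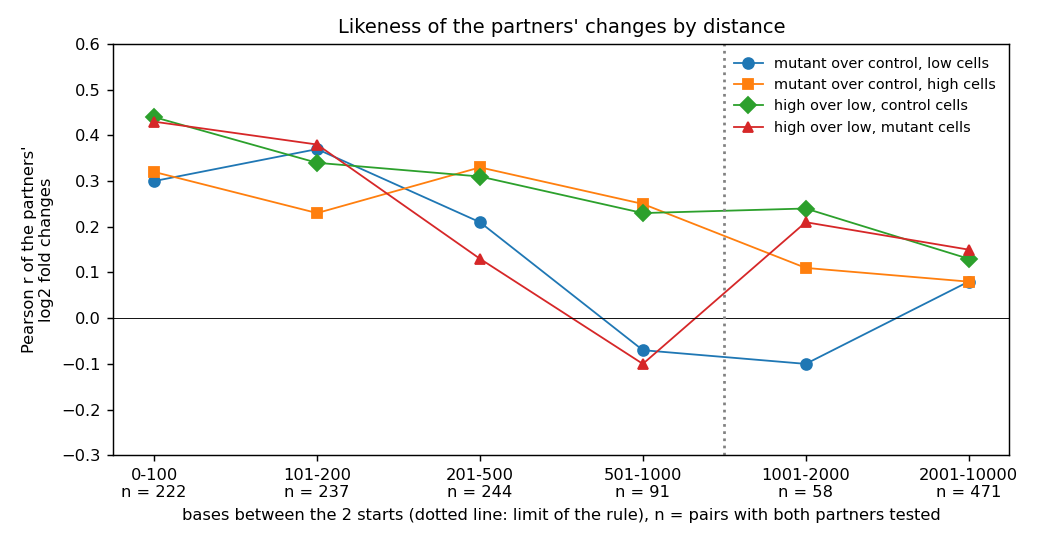
Pearson's r between the partners' log2 fold changes by the distance between the 2 starts, in each comparison, with the number of head-to-head pairs tested under each bin. Between high and low control cells r is 0.44 at 0 to 100 bases and 0.23 at 501 to 1000 bases. Beyond the limit of the rule it is 0.24 at 1001 to 2000 bases, over 58 pairs, and 0.13 at 2001 to 10000 bases.

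In the 222 tested pairs with starts 0 to 100 bases apart, 40 changed the same way and 10 in opposite ways between high and low control cells, and r was 0.44. In the 91 tested pairs with starts 501 to 1000 bases apart, 13 changed the same way and 6 in opposite ways, and r was 0.23. In mutant cells r was 0.43 and -0.10 in these 2 bins, and for mutant against control in low cells it was 0.30 and -0.07. In high cells r was 0.32 and 0.25, so the difference between near and far pairs was small there. At 501 to 1000 bases, head-to-head r was below that of same-strand neighbours in low cells (0.12) and mutant cells (0.19). It was above theirs in high cells (0.12) and control cells (0.15). At the limit of the rule the bins were small. The 10 tested pairs with starts 901 to 1000 bases apart had r of 0.64 between high and low control cells, with 1 change in the same direction, 0 in opposite ways and the same sign in 80%. The 10 tested pairs 1001 to 1100 bases apart had r of -0.43, with 1 change in the same direction, 1 in opposite ways and the same sign in 60%. With 10 pairs in each, these values are a description only.

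Both pairs that rose in low and in high mutant cells had low values in control low libraries, which their choice by a rise favours. The one with the larger values lay on chromosome 6. Its minus-strand locus spans 4624349 to 4697204 (transcript uc009avp.2) and its plus-strand locus spans 4697305 to 4710516 (uc012ehu.1), 101 bases apart. The minus-strand partner had 36.1, 30.2, 33.7 and 28.9 CPM in mutant low libraries, against 2.69, 1.22, 1.84 and 1.81 CPM in control low libraries. It had 88.6 and 86.3 CPM in mutant high libraries, against 17.3 and 29.5 CPM in control high libraries. All mutant libraries lay above all control libraries of the same kind, with a log2 fold change of 4.08 ± 0.27 (SE, adjusted p = 7.76e-07) in low cells and 1.91 ± 0.34 (adjusted p = 0.0011) in high cells.

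The plus-strand partner of this pair was low in every control library. It had 2.77, 5.03, 4.0 and 3.41 CPM in mutant low libraries, against 0.0, 0.408, 0.432 and 0.41 CPM in control low libraries. It had 15.4 and 9.23 CPM in mutant high libraries, against 0.624 and 0.284 CPM in control high libraries. No control value reached the lowest mutant value, and the log2 fold change was 3.51 ± 0.49 (adjusted p = 0.000385) in low cells and 4.66 ± 0.73 (adjusted p = 0.000528) in high cells. The ratio of the plus-strand to the minus-strand partner did not pass the test in low cells (log2 change -0.59, adjusted p = 0.799) or in high cells (2.63, adjusted p = 0.0725).

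**Figure D4:**
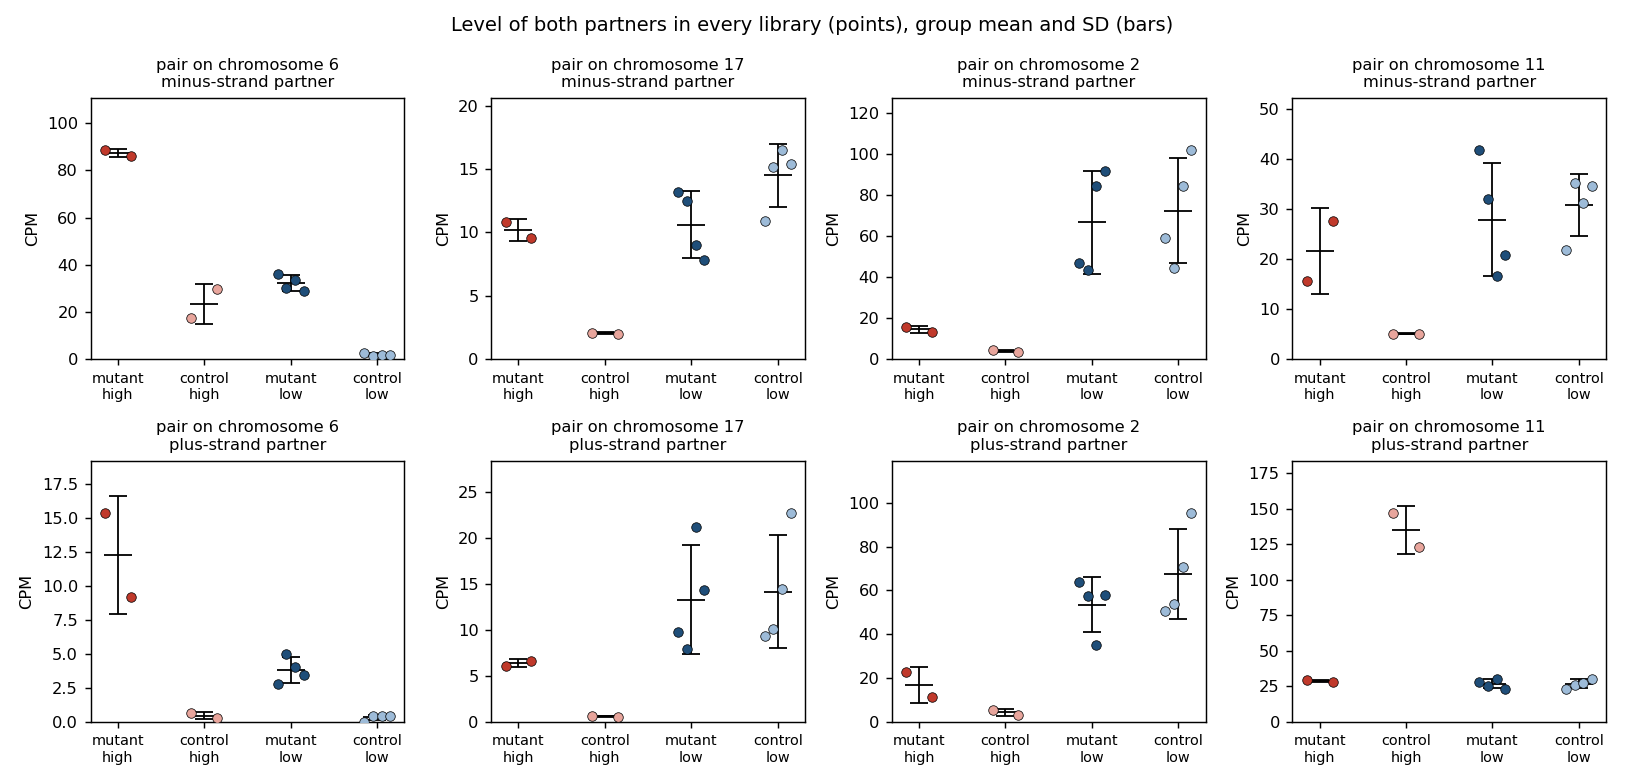
Level in CPM of the minus-strand partner (top) and the plus-strand partner (bottom) of 4 head-to-head pairs in every library, with group means and SD (n = 2 for high groups, n = 4 for low groups). Both partners of the chromosome 6 pair lie higher in mutant libraries, those of the chromosome 17 and chromosome 2 pairs are lowest in control high libraries, and those of the chromosome 11 pair go in opposite directions in control high libraries.

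The other pair that rose in both lay on chromosome 2, with loci from 158421207 to 158436459 (minus) and from 158436493 to 158441483 (plus), 34 bases apart. On the minus strand it had 3.93, 3.81, 1.67 and 1.62 CPM in mutant low libraries, against 0.0, 0.136, 0.324 and 0.164 CPM in control low libraries. Its plus-strand partner had 3.35, 2.44, 6.78 and 4.55 CPM in mutant low libraries, against 0.351, 0.272, 0.54 and 0.492 CPM in control low libraries. The groups did not overlap, and both partners passed in low cells, with log2 fold changes of 3.97 ± 0.68 (adjusted p = 0.00218) for the minus-strand and 3.3 ± 0.47 (adjusted p = 0.000557) for the plus-strand partner. In high cells the minus-strand partner had 0.773 and 2.46 CPM in mutant libraries and the plus-strand partner 1.93 and 0.862 CPM. Both partners were at 0 in the 2 control high libraries. Against a floor of 3 fragments over the group, these are at least 4.49-fold and at least 3.88-fold higher in mutant high libraries, and both passed the test (adjusted p = 0.0199 and 0.00875).

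In high cells, the other 2 pairs that rose in low cells were not called on both sides. On chromosome 11, at 84332880 to 84339036 (minus) and 84339185 to 84349332 (plus), the minus-strand partner had 44.9, 51.2, 22.3 and 20 CPM in mutant low libraries, against 8.3, 10.6, 16.4 and 7.8 CPM in control low libraries. Its plus-strand partner had 168, 203, 447 and 256 CPM in mutant low libraries, against 53.4, 59.8, 54.4 and 77.3 CPM in control low libraries. The groups did not overlap for either, although the mutant libraries high for 1 partner were not those high for the other, and the log2 fold changes were 1.68 ± 0.34 (adjusted p = 0.00639) and 2.13 ± 0.33 (adjusted p = 0.000854). On chromosome 19, at 59499593 to 59533125 (minus) and 59533179 to 59539847 (plus), the minus-strand partner had 11.3, 7.31, 11.2 and 8.77 CPM in mutant low libraries, against 0.585, 1.36, 1.3 and 1.48 CPM in control low libraries. The plus-strand partner stayed below 1 CPM in all 8 low libraries, with 0.444 to 0.924 CPM in mutant and 0.0 to 0.164 CPM in control libraries. Both had a log2 fold change of 3.01, with adjusted p = 3.63e-05 for the minus-strand and 0.0375 for the plus-strand partner.

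Of the 3 pairs named for rising in high cells, that on chromosome 6 is given above. The other 2 had low values in control high libraries, which a choice by the largest rises favours. On chromosome 5, at 129085004 to 129106562 (minus) and 129106980 to 129109968 (plus), the plus-strand partner had 24.8 and 29.3 CPM in mutant high libraries, against 1.87 and 0.284 CPM in control high libraries. Its minus-strand partner had 1.45 and 1.6 CPM in mutant high libraries and was at 0 in both control high libraries, which is at least 4.24-fold higher. Both passed the test, with a log2 fold change of 4.52 ± 0.51 (adjusted p = 0.000101) for the plus-strand partner and adjusted p = 0.00806 for the minus-strand partner, which became 0.0628 without control high replicate 1. On chromosome 17, at 25702837 to 25707631 (minus) and 25707860 to 25711979 (plus), the minus-strand partner had 10.8 and 9.6 CPM in mutant high libraries, against 2.08 and 1.98 CPM in control high libraries. Across the start, the plus-strand partner had 6.09 and 6.65 CPM in mutant high libraries, against 0.624 and 0.567 CPM in control high libraries. The log2 fold changes were 2.32 ± 0.41 (adjusted p = 0.00115) and 3.38 ± 0.70 (adjusted p = 0.00299), and in low cells neither partner passed.

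The mutant effect on the chromosome 17 pair differed between the populations for both partners. In low cells the minus-strand partner had 7.8 to 13.2 CPM in mutant libraries and 10.9 to 16.5 CPM in control libraries, and the plus-strand partner 7.92 to 21.2 CPM in mutant and 9.36 to 22.7 CPM in control libraries. The test of the difference between the mutant effects, in high minus in low cells, gave a log2 value of 2.77 ± 0.48 (adjusted p = 0.00318) for the minus-strand and 3.47 ± 0.79 (adjusted p = 0.0132) for the plus-strand partner. Over all 794 pairs this test called both partners with a positive value in 5 pairs and both with a negative value in none, against 13 at an unadjusted p under 0.05 and 4 by DESeq2. It called 1 pair in opposite ways and 1 partner alone in 71 pairs. Of the 1936 partners, 56 had a positive value (2.89%, against 7.29% of all loci tested) and 63 a negative one (3.25%, against 3.05%). The 77 pairs with any partner called were 31 or 34 when replicate 2 of mutant high or of control high was left out.

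The pairs named for the largest falls in mutant high cells had higher values in control high cells, as that choice implies. On chromosome 13, at 94426051 to 94444257 (minus) and 94444390 to 94522778 (plus), the minus-strand partner had 1.84 and 3.94 CPM in mutant high libraries, against 51.0 and 26.4 CPM in control high libraries. Likewise, the plus-strand partner had 3.0 and 1.85 CPM in mutant high libraries, against 41.0 and 25.5 CPM in control high libraries. Both fell by 3.76 on the log2 scale, with adjusted p = 0.000627 and 0.000329, although a partner of this pair overlaps a locus on the other strand, from which its fragments cannot be told apart. On chromosome 14, at 56357856 to 56364521 (minus) and 56364529 to 56374471 (plus), 8 bases apart, the plus-strand partner had 207 and 190 CPM in mutant high libraries, against 1400 and 1090 CPM in control high libraries. On the minus strand it had 11.7 and 7.75 CPM in mutant high libraries, against 41.4 and 54.4 CPM in control high libraries. They fell by 2.65 (adjusted p = 6.9e-05) and 2.29 (adjusted p = 0.0103), the second no longer called without mutant high replicate 2 (adjusted p = 0.11) or without control high replicate 2 (0.0682). This pair too has a partner overlapping a locus on the other strand.

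On chromosome 15, at 78229985 to 78236289 (minus) and 78237141 to 78244445 (plus), the minus-strand partner had 91.6 and 49.0 CPM in mutant high libraries, against 430 and 239 CPM in control high libraries. On the plus strand it had 7.73 and 1.48 CPM in mutant high libraries, against 53.3 and 25.5 CPM in control high libraries. Neither partner's groups overlapped, and both fell, by 2.25 (adjusted p = 0.00162) and 3.07 (adjusted p = 0.0291). The plus-strand call was lost without mutant high replicate 2 (adjusted p = 0.174) and without control high replicate 1 (0.143).

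In both pairs named for opposite changes in high cells, control high libraries had the lowest values of all 12 libraries for 1 partner and the highest for the other. On chromosome 11, at 69710859 to 69714488 (minus) and 69715379 to 69727324 (plus), the minus-strand partner had 15.6 and 27.7 CPM in mutant high libraries, against 4.99 and 5.1 CPM in control high libraries. By contrast, the plus-strand partner had 29.4 and 28.1 CPM in mutant high libraries, against 147 and 123 CPM in control high libraries. The first rose by 2.09 ± 0.47 (adjusted p = 0.00454) and the second fell by 2.23 ± 0.27 (adjusted p = 0.000127) on the log2 scale. In low cells the minus-strand partner had 16.7 to 41.8 CPM in mutant and 21.9 to 35.3 CPM in control libraries, and the plus-strand partner had 22.9 to 30.4 CPM in both, so the groups overlapped.

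The partner ratio, which does not depend on library size, was tested directly. In each library the fragments of the partner at the higher position were set over those of the partner at the lower position. In head-to-head pairs this is the plus-strand over the minus-strand partner. The change of this ratio was tested for 1545 pairs of all 3 kinds with both partners tested. For the chromosome 11 pair just described the ratio changed by -4.27 ± 0.54 on the log2 scale in high cells, mutant over control (adjusted p = 0.000968). It changed differently in high and low cells (difference -4.48, adjusted p = 0.00503). Another chromosome 11 pair, at 102931609 to 102962972 (minus) and 102963001 to 102973513 (plus), 29 bases apart, had 4.83 and 2.58 CPM on the minus strand in mutant high libraries, against 0.832 and 1.42 CPM in control high libraries. On the plus strand it had 11.6 and 9.48 CPM in mutant high libraries, against 33.5 and 64.6 CPM in control high libraries. Its ratio changed by -3.86 ± 0.60 (adjusted p = 0.00277), although the minus-strand call alone (adjusted p = 0.0198) was lost when replicate 1 of either high group was left out (0.131 for mutant and 0.135 for control).

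On chromosome 3, at 89013002 to 89018257 (minus) and 89019108 to 89030759 (plus), the partner ratio went the other way. On its minus strand were 14.8 and 15.3 CPM in mutant high libraries, against 32.5 and 34.3 CPM in control high libraries. On its plus strand were 20.5 and 25.5 CPM in mutant high libraries, against 5.41 and 4.54 CPM in control high libraries. The ratio rose by 3.34 ± 0.43 (adjusted p = 0.000968) in high cells and differed between high and low cells (2.97, adjusted p = 0.0136), and a partner of this pair overlaps a locus on the other strand.

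Head-to-head pairs had fewer changes of the ratio than the other 2 kinds of pair, but they also lay closer together. The median gap of tested pairs was 170 bases for head-to-head, 539 for same-strand and 378 for tail-to-tail pairs. What distance contributes to the difference was not tested. In low cells, mutant against control, the ratio changed in 1 of 794 head-to-head pairs (0.126%), against 0.971% of all 1545 pairs and 6 of 341 same-strand pairs (1.76%). In high cells it changed in 80 head-to-head pairs (10.1%), against 14.1% of all pairs and 62 same-strand pairs (18.2%). For high against low control cells it changed in 274 (34.5%), against 41.8% of all pairs and 165 same-strand pairs (48.4%). For high against low mutant cells it changed in 88 (11.1%), against 19.4% of all pairs and 91 same-strand pairs (26.7%). Tail-to-tail pairs had 18.5%, 50.5% and 29.5% in the last 3 comparisons. For the difference between the mutant effects, high minus low cells, the ratio changed in 4 head-to-head pairs, 0.504%, against 0.777% of all pairs. The head-to-head share was thus below that of same-strand pairs in every comparison. Head-to-head partners also changed less in size, with a median absolute log2 fold change of 0.84 between high and low control cells, against 1.02 for same-strand loci. In the 4 comparisons the head-to-head share stayed the lowest for pairs with both partners at 5 CPM or more and for pairs with no partner overlapping the other strand. In the latter it was 33.9% of 508 head-to-head against 50.6% of 237 same-strand pairs between high and low control cells. For the difference between the mutant effects, at 5 CPM or more, it was 0.849%, against 2.6% of same-strand and 0.787% of tail-to-tail pairs.

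The counts of changed ratios moved with single libraries. The 80 pairs of high cells were 13 once mutant high replicate 2 was left out, 32 without replicate 1 of control high and 12 without its replicate 2. The 274 pairs of control cells were 152 without control high replicate 2. The 88 pairs of mutant cells were 45 when replicate 1 of mutant high was left out and 42 when its replicate 2 was. Of the 274, 253 (92.3%) had a ratio change of the same sign between high and low mutant cells, which share no library with them, against 587 of all 794 pairs (73.9%), and 68 passed the test in both. Of the 80, 70 (87.5%) had the same sign for mutant against control in low cells, against 509 of 794 (64.1%), and 1 passed in both.

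**Figure D5:**
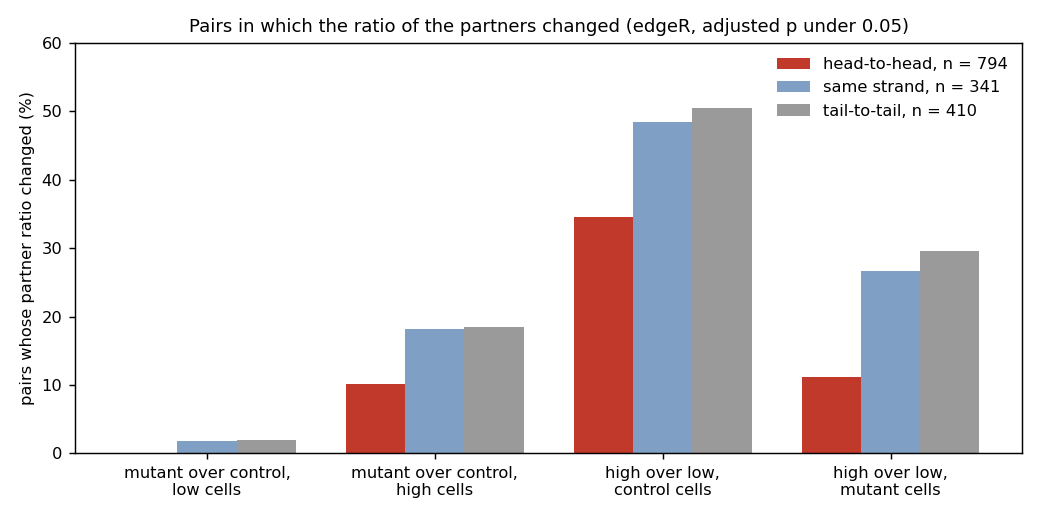
Percent of pairs in which the ratio of the 2 partners changed (edgeR, adjusted p under 0.05), for head-to-head, same-strand and tail-to-tail pairs within 1000 bases, in each comparison. The head-to-head bar is the lowest in each comparison, for example 34.5% beside 48.4% and 50.5% between high and low control cells.

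The 1 ratio that changed in low cells belonged to a pair on chromosome 3, at 75320411 to 75360721 (minus) and 75361454 to 75446445 (plus), chosen after its values were seen. Its minus-strand partner had 0.577, 0.914, 0.889 and 0.893 CPM in mutant low libraries, against 1.29, 1.63, 3.24 and 1.31 CPM in control low libraries. Its plus-strand partner had 8.89, 10.1, 14.3 and 12.8 CPM in mutant low libraries, against 5.85, 7.47, 7.13 and 5.99 CPM in control low libraries. Neither partner passed by itself (adjusted p = 0.103 and 0.0689), the groups did not overlap for either, and the ratio changed by 1.91 (adjusted p = 0.0475). This call was not stable, since the count of such pairs was 0 without any of 8 of the 12 libraries.

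Of the 3 pairs named for both partners higher in control high cells, 2 were also called on both sides in mutant cells. In the third, the chromosome 13 pair at 94444257 described above, the partners rose by 4.88 (minus strand) and 4.39 (plus strand) in control cells. This rise rests on the same 2 control high libraries as its fall in mutant high cells. In mutant cells its minus-strand partner rose by 4.89 (adjusted p = 0.000136) and its plus-strand partner did not pass (1.21, adjusted p = 0.0684). On chromosome 1, at 82447297 to 82583424 (minus) and 82583495 to 82718634 (plus), the minus-strand partner had 20.4 and 37.1 CPM in control high libraries, against 0.468, 2.85, 2.05 and 0.821 CPM in control low libraries. Its plus-strand partner had 43.1 and 89.3 CPM in control high libraries, against 1.4, 4.48, 2.38 and 2.05 CPM in control low libraries. The log2 fold changes were 4.23 ± 0.66 (adjusted p = 0.000138) and 4.69 ± 0.58 (adjusted p = 2.06e-05). In mutant cells the same partners had 28.4 and 4.8 CPM and 72.2 and 23.5 CPM in high libraries, against at most 1.04 and 1.85 CPM in low libraries. All high libraries lay above all low libraries for both partners, of which 1 overlaps a locus on the other strand. The log2 fold changes in mutant cells were 4.75 ± 0.71 (adjusted p = 0.000201) and 5.76 ± 0.63 (adjusted p = 1.54e-05).

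The pair on chromosome 19, at 18654853 to 18706303 (minus) and 18706451 to 18726674 (plus), was higher in high cells of both genotypes. The minus-strand partner had 20.8 and 65.2 CPM in control high libraries, against 2.13 to 3.57 CPM in control low libraries, and 14.6 and 6.77 CPM in mutant high libraries, against 0.667 to 1.37 CPM in mutant low libraries. The plus-strand partner had 52.8 and 83.1 CPM in control high libraries, against 1.51 to 3.27 CPM in control low libraries, and 8.7 and 16.4 CPM in mutant high libraries, against 0.406 to 2.11 CPM in mutant low libraries. High and low libraries did not overlap. Both partners also fell in mutant high libraries against control high libraries, by 2.0 (adjusted p = 0.0105) and 2.44 (adjusted p = 0.00369). That comparison shares its control high libraries with the rise in control cells.

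On chromosome 6, at 48783810 to 48791373 (minus) and 48791481 to 48795857 (plus), the minus-strand partner had 3210 and 1550 CPM in mutant high libraries, against 600, 434, 309 and 245 CPM in mutant low libraries. Its plus-strand partner had 32.6 and 20.6 CPM in mutant high libraries, against 3.35, 4.57, 0.778 and 2.52 CPM in mutant low libraries. The groups did not overlap, and the log2 fold changes were 2.58 ± 0.36 (adjusted p = 7.76e-05) and 3.27 ± 0.58 (adjusted p = 0.000914).

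The pair on chromosome 2 at 104916694 to 104966667 (minus, uc008lkn.1) and 104966685 to 105013771 (plus, uc008lkp.1), 18 bases apart, was lower in high cells of both genotypes. The minus-strand partner had 4.37 and 3.4 CPM in control high libraries, against 59.2, 44.3, 84.6 and 102 CPM in control low libraries. The plus-strand partner had 5.41 and 3.12 CPM in control high libraries, against 50.8, 53.7, 70.9 and 95.5 CPM in control low libraries. Both fell in high control cells, by 4.21 ± 0.49 (adjusted p = 5.52e-06) and 3.96 ± 0.46 (adjusted p = 5.7e-06), and their ratio did not pass the test (0.20, adjusted p = 0.812). In mutant cells the minus-strand partner had 15.7 and 13.2 CPM in high libraries, against 43.4 to 91.9 CPM in low libraries, and the plus-strand partner 22.6 and 11.1 CPM against 35.2 to 63.7 CPM. Both fell there too, by 2.2 (adjusted p = 0.000844) and 1.67 (adjusted p = 0.00394), the plus-strand call being lost without mutant high replicate 2 (0.0668). In high cells both partners were higher in mutant than in control libraries, by 1.88 (adjusted p = 0.0111) and 1.96 (adjusted p = 0.00652). The control high libraries are the same ones in which the fall in control cells was seen.

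The pairs on chromosomes 5 and 17 that rose in mutant high cells were also among the most decreased in high control cells. Both comparisons use the same 2 control high libraries, so low values there give both changes, and these are not separate findings. The chromosome 5 plus-strand partner had 1.87 and 0.284 CPM in control high libraries, against 27.0 to 32.7 CPM in control low libraries, and 24.8 and 29.3 CPM in mutant high libraries, against 47.2 to 91.6 CPM in mutant low libraries. It fell by 4.65 ± 0.49 (adjusted p = 2.27e-06) in control cells and by 1.29 ± 0.35 (adjusted p = 0.0108) in mutant cells, and lost its call in mutant cells without either mutant high library (0.0979 and 0.0546). The chromosome 17 partners fell by 2.83 on the minus strand (adjusted p = 2.85e-05), and fell by 4.53 on the plus strand (adjusted p = 4.72e-05) in control high cells, and neither passed between high and low mutant cells (adjusted p = 0.959 and 0.0808). A chromosome 2 pair at 153053504 to 153067094 (minus) and 153067267 to 153095985 (plus) fell in high cells of both genotypes. Its partners fell by 2.02 (adjusted p = 0.000757) and 1.35 (adjusted p = 0.00234) in mutant cells, and by 2.09 (adjusted p = 0.000357) and 1.14 (adjusted p = 0.00406) in control cells.

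Opposite changes between high and low cells were led by a chromosome 5 pair, at 110703304 to 110715187 (minus) and 110715337 to 110766472 (plus), 150 bases apart. The minus-strand partner had 12.3 and 9.07 CPM in control high libraries, against 0.234, 0.408, 0.108 and 0.246 CPM in control low libraries. The plus-strand partner had 6.03 and 8.22 CPM in control high libraries, against 37.8, 42.4, 61.9 and 54.5 CPM in control low libraries. The ratio of plus-strand to minus-strand fragments changed by -8.17 ± 0.80 (adjusted p = 1.01e-05) in control cells and by -4.98 ± 0.81 (adjusted p = 0.000874) in mutant cells. On chromosome 7, at 19598630 to 19608888 (minus) and 19609725 to 19639971 (plus), the minus-strand partner had 3.67 and 6.52 CPM in mutant high libraries, against 0.444 to 1.04 CPM in mutant low libraries, and the plus-strand partner had 34.8 and 12.7 CPM against 62.9 to 75.7 CPM. Its ratio changed by -4.31 ± 0.70 (adjusted p = 0.000874).

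In 2 further pairs the minus-strand partner rose far in control high cells, by 3.56 and 3.05 on the log2 scale, and the plus-strand partner fell by 1.19 and 1.16. The first of these falls, on chromosome 19, was not called once replicate 1 of control high was left out (adjusted p = 0.0834), once its replicate 2 was (0.0861) or in the fit of the 8 libraries with shared numbers (0.0687). On chromosome 19, at 10662280 to 10679922 (minus) and 10680114 to 10704311 (plus), the minus-strand partner had 286 and 265 CPM in control high libraries, against 18.3 to 28.5 CPM in control low libraries, and the plus-strand partner 185 and 200 CPM against 295 to 587 CPM. Its ratio changed by -4.73 ± 0.34 (adjusted p = 1.74e-06) in control cells and by -2.87 ± 0.33 (adjusted p = 7.24e-05) in mutant cells. On chromosome 5, at 149931140 to 149995639 (minus) and 149996135 to 150027010 (plus), the minus-strand partner had 652 and 500 CPM in control high libraries, against 56.5 to 91.2 CPM in control low libraries, and the plus-strand partner 64.3 and 46.8 CPM against 115 to 138 CPM. Its ratio changed by -4.24 ± 0.33 (adjusted p = 3.19e-06) in control cells and by -2.82 ± 0.32 (adjusted p = 6.74e-05) in mutant cells. A partner of each overlaps a locus on the other strand.

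Switching on of a partner that was silent in control cells of the same population was rare in head-to-head pairs. A locus was taken as switched on when it rose in mutant libraries by at least 2 on the log2 scale, from a control mean under 0.5 CPM to a mutant mean of at least 1 CPM. In low cells 10 of the 1936 tested partners did so (0.517%, against 0.844% of all loci tested), and in high cells 20 did (1.03%, against 2.77%). The partner across the start was itself called higher for 3 of the 10, 2 of them the partners of the chromosome 2 pair at 158421207, and for 5 of the 20, and it was called lower for none. For 6 of the 10 and 8 of the 20 the other partner was too low to be tested. The largest fitted rise was that of a minus-strand locus on chromosome 4, 88920376 to 88940523, in a pair with an overlap on the other strand. It had 5.31, 5.64, 2.0 and 1.06 CPM in mutant low libraries and 4.15 and 2.09 CPM in mutant high libraries, against 0 in all 6 control libraries. With the floor of 3 fragments over the group it was at least 43.6-fold higher in mutant low and at least 8.68-fold higher in mutant high libraries, and its plus-strand partner, also at 0 in all control libraries, had 0.61 to 2.11 CPM in mutant low libraries. A plus-strand locus on chromosome 13, 31717684 to 31723275, and one on chromosome 9, 98856025 to 98858545, also had large fitted rises in low cells, and fitted values of loci at 0 in control cells give no order between these. The chromosome 13 locus averaged 1.1 CPM in mutant low libraries and was at 0 in control low libraries, which is at least 13.7-fold higher, while its partner averaged 0.0381 CPM and 0.0811 CPM. The chromosome 9 locus averaged 2.58 ± 1.44 CPM in mutant low libraries and 0.0475 ± 0.0559 CPM in control low libraries (SD, n = 4 each), and its partner 2.47 ± 1.13 CPM and 0.539 ± 0.497 CPM, which did not pass (adjusted p = 0.0598). In high cells a plus-strand locus on chromosome 2, 28555680 to 28668685, averaged 1.61 CPM in mutant libraries and was at 0 in control libraries, at least 4.47-fold higher, and its partner was too low to be tested. This locus had 3.27, 1.09, 1.3 and 2.22 CPM in control low libraries, so it was not silent in all control cells. A value listed at 0 in these files can also be a failed estimate.

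Loci switched off, by the same limits turned round, numbered 3 partners in low cells (0.155%, against 0.553% of all loci tested) and 11 in high cells (0.568%, against 0.596%), with the other partner called lower for none of the 3 and 1 of the 11. On chromosome 17 the minus-strand locus from 25019555 to 25023295 averaged 0.413 CPM in mutant high libraries and 3.45 CPM in control high libraries, while its partner averaged 136 CPM and 147 CPM (adjusted p = 0.799). The other partner averaged at least 1 CPM in control cells for 7 of the 11, but there the switched-off locus was itself on. That count therefore does not show a silent locus beside an active one. In the chromosome 17 pair at 25019555 the values of mutant high libraries do show this, although that pair has an overlap on the other strand.

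Fewer pairs had both partners on in each mutant group by the mean, a difference that did not pass in low cells and could not pass in high cells. At 1 CPM or more for both partners there were 678 ± 5.66 pairs in mutant high libraries and 728 ± 19.1 in control high libraries (SD, n = 2 each), and 677 ± 29.5 in mutant low libraries and 711 ± 32.0 in control low libraries (SD, n = 4 each). The ranges did not overlap in high cells, at 674 to 682 in mutant and 714 to 741 in control libraries, but overlapped in low cells, at 641 to 706 in mutant and 681 to 753 in control libraries. The exact two-sided permutation test gave p = 0.333 in high cells, the smallest that 2 against 2 libraries allow, so that no difference could pass there. The same exact permutation test gave p = 0.2 in low cells, where the smallest possible is 0.0286. By group means, a partner was at 1 CPM or more in 75.8% of cases when the other was, in mutant high libraries, against 79.7% in control high libraries, and in 76.9% against 79.1% in low cells.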

How the data were processed

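RNA was measured in 12 libraries of sorted mouse kidney cells, made with a SMART-Seq kit per the labels' protocols, and grouped by the sample titles. The authors deposited 1 table of raw, estimated counts for each transcript, which the file itself calls raw fragments of CuffDiff2; Bowtie2, HTSeq, DESeq2 and mm9 stand in the submitters' processing notes without versions or roles. Any use of strand is not given in the sources used here, so fragments of loci that overlap on opposite strands cannot be told apart. Near-identical copies were not examined. Whether starts count from 0 or 1 is not stated, and positions are printed as deposited. Of the 55418 rows, 303 lacked a position and summed to 0 fragments.

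Between 42.5% and 49.2% of a library's nonzero transcript values were whole within 0.01, so transcripts overlapping on 1 strand were summed to 26699 loci, of whose sums 99.4% to 99.9% were whole, and the sums were rounded. Loci were tested in edgeR 4.0.16 (R 4.3.3) by quasi-likelihood, with TMM scaling, filterByExpr, robust dispersions and all 12 libraries in 1 fit of 4 groups, with Benjamini-Hochberg adjustment over 13749 loci. The SE is the log2 fold change divided by the root of F. The partner ratio was tested in an edgeR fit of 24 columns, 1 for each library and partner, with terms for library, partner and partner by group, adjusted over 1545 pairs. DESeq2 1.42.0 and limma 3.58.1 served as alternatives. The edgeR locus fit and ratio fit were tried on simulated data, for mutant against control in low cells only. The alternatives and the comparisons that use high libraries were not simulated.

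The members, pair lists and rules were chosen with earlier results of these data known. Pairs were named if both partners averaged at least 5 CPM in some group: the 3 largest changes in each direction with both partners called, ranked by the smaller change, the 2 largest opposite ones and the 2 smallest adjusted p of the ratio, in each comparison. In low cells this left 2 pairs, and the others with both called were added after their values were seen. The 3 largest rises among switched-on loci in each population were also named; the switched-off example was chosen after its values were seen. Replicate numbers were not taken as pairing. The deviations of libraries with the same number correlated unevenly, from 0.0671 to 0.467 in low cells and at -0.055 in high cells. Cell type markers need gene names and were not analysed here.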

Additional observations from a re-analysis of the deposited data

Results flagged for a closer look

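Of the 82 sets of 4 library values examined, from the named pairs and the measures of whole libraries, 3 held a library far from the others, and chance alone gives about 1 in 20. The plus-strand partner of the chromosome 6 pair had 0.0 CPM in control low replicate 1, below the other 3 control low libraries. The plus-strand partner of the chromosome 13 pair had 0.432 CPM in control low replicate 3, and the minus-strand partner of the chromosome 1 pair had 1.04 CPM in mutant low replicate 1.

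For these named partners, mutant against control differed between the 2 populations by edgeR's test of the difference on the log2 scale, high minus low. It was -2.17 (adjusted p = 0.00558) for the minus-strand partner on chromosome 6 and 3.37 (adjusted p = 0.00289) for the plus-strand partner of the chromosome 5 pair at 129106562. On chromosome 17 it was 2.77 and 3.47 for the 2 partners, and on chromosome 2 at 104966667 it was 2.0 (adjusted p = 0.0382) and 2.3 (adjusted p = 0.0161). In both of these pairs it was positive for both partners.

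Among partners that were high in control high cells, the difference was -3.18 on chromosome 13 (plus strand, adjusted p = 0.00917), -2.13 on chromosome 14 (plus strand, adjusted p = 0.00168), -1.73 on chromosome 15 (minus strand, adjusted p = 0.0431) and -1.88 on chromosome 19 at 10679922 (minus strand, adjusted p = 0.0195). The chromosome 11 pair at 69714488 had 2.24 for its minus-strand and -2.23 for its plus-strand partner, and -4.48 for the ratio. The chromosome 11 pair at 102962972 had 2.12 for its minus-strand partner and -3.34 for the ratio (adjusted p = 0.0494). The chromosome 3 pair at 89018257 had 2.36 for its plus-strand partner and 2.97 for the ratio.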

How the results depend on the processing

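No partner of a pair named by the rule reversed its direction under any alternative, in the comparison it was named for. The direction of the other calls and of the ratios was not followed under the alternatives. The mutant and control high groups hold 2 libraries each, so a group left with 1 library was assumed to vary like the others. Leaving out 1 library at a time, pairs with both partners called the same way numbered 3 to 5 for mutant against control in low cells, 8 to 31 in high cells, 60 to 138 for high against low control cells and 16 to 39 for mutant cells. The same-sign share ranged over 49.5% to 58.4% in low cells (highest without control low replicate 2, lowest without control low replicate 4), 55.2% to 58.5% in high cells, 56.7% to 58.7% in control and 53.8% to 58.6% in mutant cells. Changed ratios numbered 0 to 2, 12 to 91, 152 to 289 and 42 to 95 in the same comparisons, and pairs with a differing mutant effect 31 to 89. The share of fragments on head-to-head loci, high minus low, ranged over -2.07 to -0.874 percentage points in control and -1.79 to -1.05 in mutant cells. The median absolute log2 ratio between partners, high minus low control cells, ranged over -0.105 to 0.161, with 0.0281 in all libraries. It also crossed 0 for mutant against control in high cells (-0.0512 to 0.214) and for high against low mutant cells (-0.0291 to 0.0827), as did the share of fragments for mutant against control in high cells (-0.345 to 0.854) and the pairs with both partners on for high against low mutant cells (-11.3 to 10.3), and none of these differences had passed a test.

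With a mean of at least 5 CPM, the pairs called the same way were 1 rather than 4 in low cells, 73 rather than 130 in control cells and 24 rather than 40 in mutant cells, fewer pairs being tested. With the 8 libraries that share a number in their descriptions they were 2 in low cells and 23 in mutant cells, and with that number as a block 22. With only the 2 groups compared they were 25 in mutant cells. With no filter on low counts the same-sign share in high cells was 53.2%. DESeq2 called 124 pairs with a differing mutant effect, against 77. In low cells limma called 2 changed ratios, and gaps limited to 500 or extended to 2000 bases gave 0. Without loci in several pairs or overlapping the other strand, changed ratios were 172 of 274 in control and 58 of 88 in mutant cells, fewer pairs being left. With gaps up to 2000 bases, the difference in the share of fragments was 0.0419 percentage points in low cells, against 0.201, and -2.06 against -1.47 in control cells.

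The deviations of libraries with the same replicate number correlated at 0.0671, 0.284, 0.0991 and 0.467 in low cells and at -0.055 in high cells. The numbers were not taken to pair the samples, although all values in low cells were positive and a pairing there is not excluded. High and low libraries sharing a number in their descriptions correlated at 0.225 and 0.136 in mutant and at -0.0555 and -0.0836 in control cells. In control cells the replicate number joins high and low libraries whose description numbers differ. With the replicate number as a block, pairs called the same way in high cells were 47 rather than 29, changed ratios 4 in low and 139 in high cells, and pairs with a differing mutant effect 125. Among the named partners, 10 calls were lost under at least 1 alternative, and the cause was not tested. The 2 high libraries a group, with as few as 4549011 fragments, limit what the high comparisons can show.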
